A study of Mus musculus with 15 samples.

Results

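Calpains are cysteine proteases of the cell interior that cut a limited number of sites in their substrates when calcium rises. The conventional enzymes pair a large catalytic subunit, Capn1 or Capn2, with the small regulatory subunit Capns1, and are held in check by calpastatin (Cast). Other family members are tied to a tissue, such as Capn3 in skeletal muscle and Capn8 and Capn9 in the lining of the stomach, where these last form a complex. The data described here are those of 10 calpain genes (Capn1, Capn2, Capn3, Capn5, Capn7, Capn8, Capn9, Capn10, Capn12 and Capns1) in mouse liver RNA, taken as every probe that is not a control and carries the name of a member in the scanner files. They were 15 of 55681 probes and 10 of 22032 gene symbols, with 1 probe for 5 members and 2 probes for the other 5. The set was chosen on Capn8, a gene that the study had listed for its differences between the same groups of livers, so the Capn8 values are a description and carry no test. The other 9 genes were tested in a fit over all gene symbols.

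The livers came from male CD1 mice in 3 groups. Control mice had received saline and an empty plasmid, DEN mice the liver carcinogen diethylnitrosamine and an empty plasmid, and Gas1 mice diethylnitrosamine and then a plasmid carrying the growth arrest specific gene Gas1, all plasmids being given by hydrodynamic gene delivery, a rapid injection of a large volume into the tail vein. The labels give the age as 10 weeks, whereas the methods of the study place the carcinogen in infancy and the weekly plasmid injections in adults older than the label gives, begun shortly before the age at which tumors had been found fully developed. Gas1 was driven by the broadly active CAG promoter and reached only a part of the liver cells, those near blood vessels, and the RNA is that of liver tissue, so that fewer cells of a type and less RNA per cell cannot be told apart. There were 4 Control, 5 DEN and 6 Gas1 arrays, and a pair of Control arrays (3 and 4) and a pair of DEN arrays (4 and 5) carried the same RNA code, so that each pair was averaged and counted as 1 mouse, leaving 3, 4 and 6 mice. All values are log2 signals after background correction and quantile normalization, and differences are differences of log2 means with their standard error.

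Between 15707 and 29765 spots per array were well above background, the scanner software's call that a spot exceeds its local background, with 15707 to 27681 in Control, 19970 to 22638 in DEN and 18041 to 29765 in Gas1. The 10 hepatocyte markers were above background, with means per mouse of 14.78 to 15.11 over all groups. In the sixth Gas1 mouse, however, 7 of 8 skeletal muscle genes with a value in every mouse were at their highest, and their mean was 10.21 against 6.03 to 6.16 in the other 12 mice.

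The sequences behind the Capn8 measurements are shown so that the array probe and the primers of the study can be compared. The study lists these primers for RT-PCR, a second method by which it reported the genes it checked as restored after Gas1. Its RT-PCR values were not examined here. The array probe lies on chromosome 1 of build mm9, chr1:184562310-184562369, on the forward strand, and the first 30 of its 60 bases are given below with those of the Capn10 probe, chr1:94844230-94844289, the member that passed the test. The longest run of bases that the Capn8 probe shares with a probe of another member is 7, and that of the Capn10 probe is 8. The reference annotation lists Capn8 as an older synonym of Capn10, but both probes are assigned in the files to transcripts that RefSeq gives to the genes named here. Neither primer of the study lies within the probe, and the product between the primers was not placed here.
Capn8 probe: tgtcatttactgactgttgtattgtccagc
Capn10 probe: gtggaccttggggctaaaatagggtgcttt
Capn8 primer, first: aggacttcgagaccctgagaa
Capn8 primer, second: ggtccaagatccctgtagcc

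Capn8, known from gastric mucus cells, was higher in the DEN livers than in the Control livers, and on most Gas1 arrays it was near the background. The 4 Control arrays read 5.94, 5.88, 5.98 and 6.21, and the probe was well above background on none of them. The 5 DEN arrays read 6.46, 7.21, 7.32, 7.40 and 7.61, and the probe was well above background on each. The lowest, median and highest Gas1 arrays read 6.03, 6.09 and 6.85, and the probe was well above background on 1 of 6. Every DEN mouse lay above every Control mouse, whereas the DEN and Gas1 mice overlapped through the first DEN mouse (6.46) and the fourth Gas1 mouse (6.85).

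**Figure D1:**
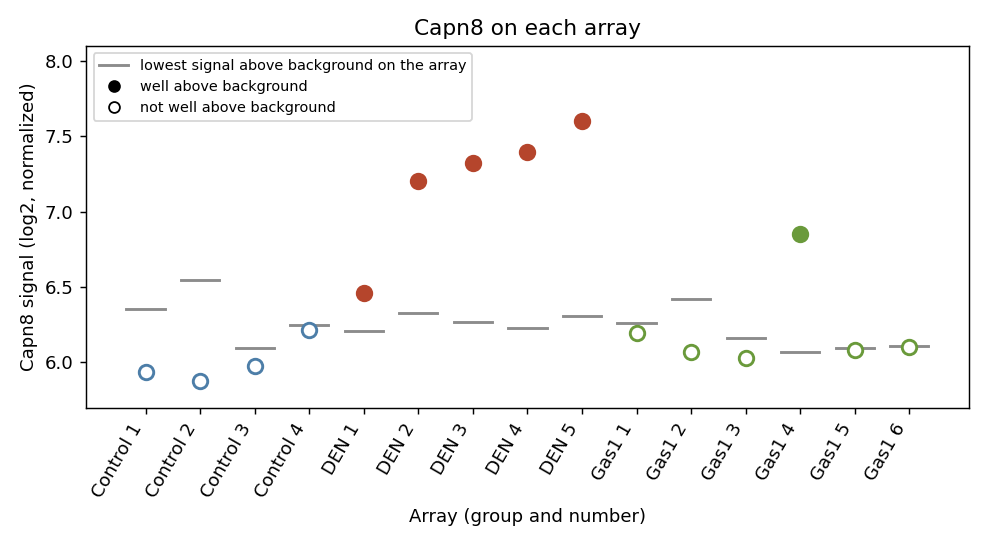
Capn8 signal (log2, normalized) on each of the 15 arrays, with filled points where the probe was well above background and open points where it was not, and a grey bar at the lowest signal well above background on that array. All 5 DEN arrays are filled, at 6.46 to 7.61, against none of the 4 Control arrays and 1 of the 6 Gas1 arrays.

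The Capn8 mean was 5.97 ± 0.11 in Control (SD, n = 3), 7.12 ± 0.46 in DEN (n = 4) and 6.22 ± 0.31 in Gas1 (n = 6). The order of the levels was thus DEN, Gas1, Control, of which the Gas1 and Control means differed by less than the spread within the Gas1 group. DEN exceeded Control by 1.15 (standard error 0.23), and Gas1 was below DEN by a difference of -0.90 (0.20). Since no Control array measured the gene, DEN was taken as at least 1.7-fold higher. For this limit, the DEN mean is set against a Control mean. In that mean, each array takes the weakest signal called well above background where its own is lower. The limit is approximate, since a spot that is not called can exceed that signal, as Capn1 did on the second Gas1 array (6.47 against 6.42). Gas1 exceeded Control by 0.25 (0.22), for which the same limit gives no fold. The comparisons share the DEN or the Control samples and are not separate evidence.

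The size of the Capn8 differences depends on the treatment of dim signals. With an offset of 16 in place of 50 before the log, DEN exceeded Control by 1.85 and Gas1 versus DEN was -1.37, and with the processed signal of the scanner software the values were 3.23 and -2.92. The gap was present on both slides, with 2 DEN arrays at 7.21 to 7.40 and 2 Control arrays at 5.88 to 5.98 on slide 1, and 3 DEN arrays at 6.46 to 7.61 and 2 Control arrays at 5.94 to 6.21 on slide 2. The slides do not hold separate mice. Control arrays 3 (slide 1, 5.98) and 4 (slide 2, 6.21) carried the same RNA code, as did DEN arrays 4 (slide 1, 7.40) and 5 (slide 2, 7.61). The fourth Gas1 array, which had the highest Capn8 signal of its group, also had the most spots above background of all arrays (29765), and the third Control array, with 27681, read 5.98. The part of array sensitivity in the Gas1 value was not tested.

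The conventional calpains were present in all groups. Capn2, the catalytic subunit of m-calpain, was well above background on all 15 arrays, and Capn1, that of mu-calpain, on 14. For Capn1 the Control mice read 7.19, 7.10 and 6.92, the DEN mice 6.76, 6.82, 6.71 and 6.70, and the Gas1 mice 6.47 to 6.84 with a median of 6.70. All DEN and all Gas1 mice were thus below all Control mice. The difference was -0.32 (0.10) in DEN against Control and -0.40 (0.09) in Gas1 against Control, with adjusted p = 0.0882 and 0.0759 over all gene symbols (limma), neither past 0.05.

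For Capn2 the differences had the same sign and were smaller. Its mean was 10.24 ± 0.12 in Control, 9.99 ± 0.16 in DEN and 9.92 ± 0.12 in Gas1 (SD, n = 3, 4 and 6). DEN and Control mice overlapped, whereas the highest Gas1 mouse (10.08) was below the lowest Control mouse (10.11). Neither -0.25 (0.10) in DEN nor -0.32 (0.09) in Gas1 against Control passed the test (adjusted p = 0.18 and 0.153, limma). Median scaling here divides the log2 values of each array so that the array medians match. After it the DEN values were 0.07 for Capn1 and 0.72 for Capn2, or -0.05 and 0.60 relative to the median of all genes, which shifted by 0.12. That median lies near the background (6.11 in the authors' values), so its shift need not be that of brighter genes.

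Capns1, the regulatory subunit shared by both enzymes, was above background with both probes on every array and its group means lay within 0.16 of each other, at 11.27 ± 0.14 in Control, 11.37 ± 0.17 in DEN and 11.43 ± 0.20 in Gas1. Its probes did not run together. In DEN against Control, chr7:30971962-30972021 gave 0.35 (0.13) and chr7:30972099-30972158 gave -0.14 (0.13), with adjusted p = 0.186 and 0.65 over all probes (limma). Median scaling moved the gene from 0.11 to 1.11 in this comparison (adjusted p = 0.0341, limma), so that its level relative to Control depends on the scaling.

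**Figure D2:**
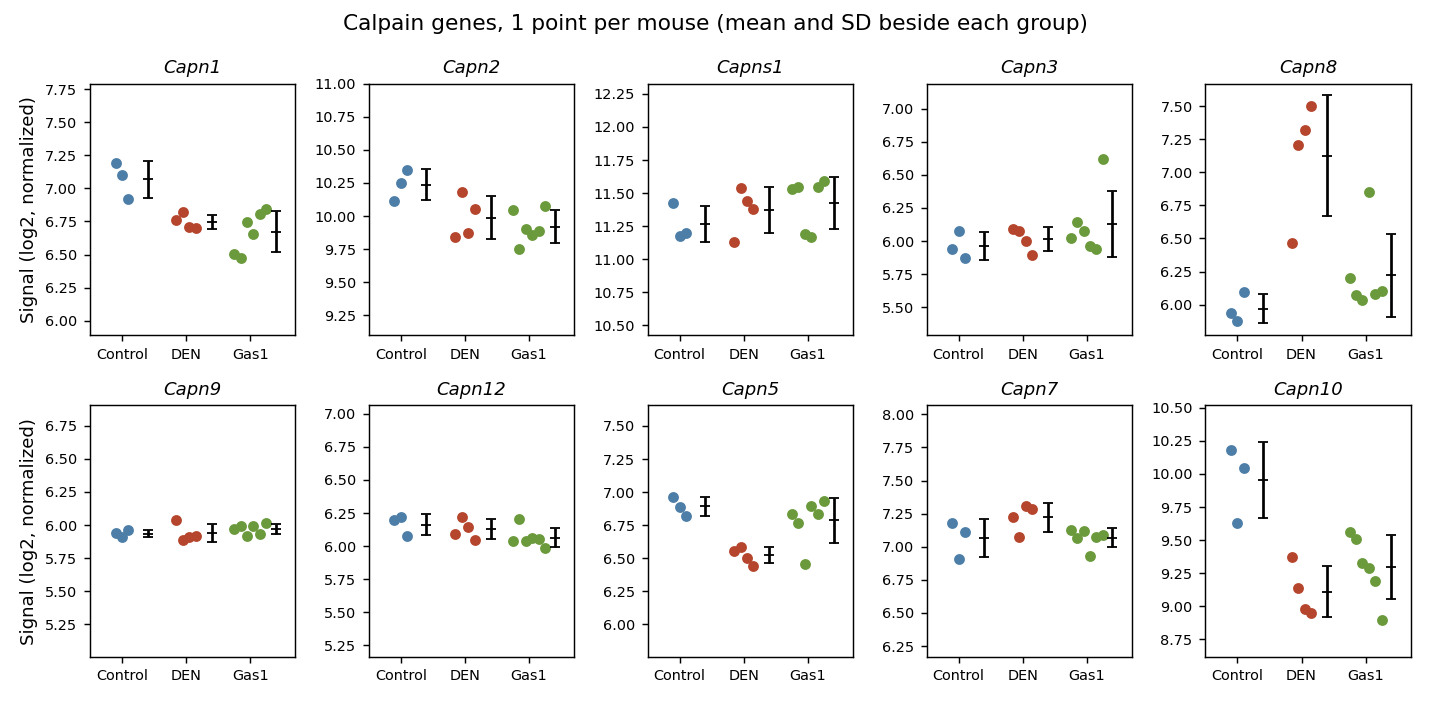
Log2 signal of the 10 calpain genes in each mouse (points; 3 Control, 4 DEN, 6 Gas1), with the group mean and SD beside the points and a vertical axis of the same length in every panel. Capn8 is highest in DEN, at a mean of 7.12, and Capn10 is highest in Control, at 9.95, though not after median scaling of the arrays, while Capn9 stays between 5.88 and 6.04 in all mice.

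Of the calpains tied to other tissues, Capn9, the partner of Capn8 in the stomach, had no probe called well above background on any of the 15 arrays. Its mice read 5.88 to 6.04, and the group means of 5.94, 5.94 and 5.97 in Control, DEN and Gas1 give no level for this gene. Capn12, known from hair follicles, was above background on 4 of 15 arrays and its means ran from 6.06 in Gas1 to 6.16 in Control.

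Capn3, the calpain of skeletal muscle, was above background on 1 array, that of the sixth Gas1 mouse. There its mean over both probes was 6.62, against 5.94 to 6.15 in the other Gas1 mice, 5.89 to 6.09 in DEN and 5.87 to 6.07 in Control. The signal came from the probe at chr2:120330438-120330497, which read 7.33 in this mouse and 5.85 to 6.21 in the other 12. The other probe, chr2:120289737-120289796, read 5.91 in it. This is the mouse with the high skeletal muscle genes, among them the fast myosin heavy chain Myh4 at 12.52 (5.85 to 6.09 in the other 12 mice) and muscle creatine kinase Ckm at 10.85 (5.79 to 6.21), both named after their values were seen, and the part of muscle RNA in its Capn3 signal was not tested. Without it, the Gas1 versus DEN difference of Capn3 went from 0.11 to 0.02.

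**Figure D3:**
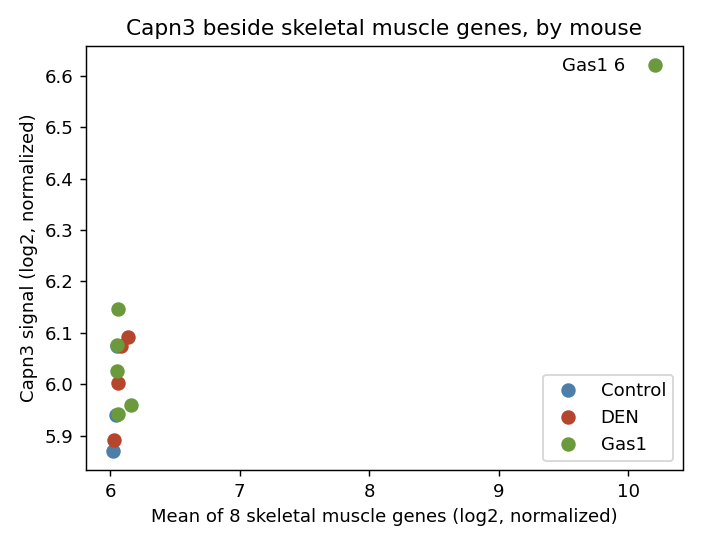
Capn3 log2 signal (mean of its 2 probes) against the mean log2 signal of 8 skeletal muscle genes, with 1 point per mouse colored by group. The sixth Gas1 mouse stands apart on both axes, at 10.21 and 6.62, and the other 12 mice lie between 6.03 and 6.16 on the horizontal axis.

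The remaining members, Capn5, Capn7 and Capn10, lack the calcium-binding domain through which the conventional enzymes bind the small subunit. Capn10, linked by human genetics to type 2 diabetes, was well above background on all 15 arrays. The Control arrays read 10.18, 9.63, 9.99 and 10.10, the DEN arrays 9.37, 9.14, 8.98, 8.88 and 9.03, and the Gas1 arrays 8.90 to 9.57 with a median of 9.31. No DEN or Gas1 array reached the lowest Control array.

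Capn10 fell by 0.84 (0.17) in DEN against Control, a level 1.79 times lower, with adjusted p = 0.0256 over all gene symbols (limma). After median scaling, however, the value was 0.076, or -0.04 relative to the median of all genes, which shifted by 0.12. That median lies near the background (6.11 in the authors' values), so its shift need not be that of a bright gene such as Capn10. With cyclic loess normalization the value was -0.81 (adjusted p = 0.0372, limma). Of 33 alternatives, 22 kept Capn10 past the threshold, and median scaling alone changed its sign. With quantile normalization, the Capn10 difference in Gas1 against Control was -0.66 (0.15; adjusted p = 0.09), and in Gas1 against DEN 0.19 (0.14; adjusted p = 0.675). Neither passed the threshold (limma), though the first did with slide as a block (-0.66, adjusted p = 0.0266, limma). The difference between DEN and Control was present on each slide, at -0.80 on slide 1 and -1.02 on slide 2, without passing the threshold within either (adjusted p = 0.165 and 0.0571, limma). The slides do not hold separate mice, since the mouse of Control arrays 3 and 4 and that of DEN arrays 4 and 5 had an array on each. The call was lost without the first Control mouse (adjusted p = 0.0974), the mouse of Control arrays 3 and 4 (0.0542) or DEN mouse 2, 3 or 4 (0.0579, 0.0785 and 0.0728; limma), with differences of -0.73 to -0.85.

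Capn5, a calpain expressed in many tissues, was lowest in DEN. The Control mice read 6.97, 6.89 and 6.82, the DEN mice 6.56, 6.59, 6.50 and 6.45, and the Gas1 mice 6.46 to 6.93 with a median of 6.83. All DEN mice were below all Control mice, and only the third Gas1 mouse (6.46) lay within the DEN range. The difference was -0.37 (0.09) in DEN against Control (adjusted p = 0.0596) and 0.26 (0.08) in Gas1 against DEN (adjusted p = 0.236), neither past the threshold (limma). It rested on the probe at chr7:105270246-105270305, with -0.66 (0.22) in DEN against Control, whereas the other, chr7:105272171-105272230, was above background on 6 of 15 arrays and gave -0.07 (0.10). Without the third Gas1 mouse, which enters only through the shared estimate of the spread, the DEN difference passed the threshold (adjusted p = 0.0157, limma).

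Capn7, which binds the membrane-remodelling ESCRT machinery, was above background on every array. Its mean was 7.07 ± 0.14 in Control, 7.22 ± 0.11 in DEN and 7.07 ± 0.07 in Gas1 (SD, n = 3, 4 and 6), and the groups overlapped. The differences of 0.16 (0.08) in DEN against Control and -0.15 (0.06) in Gas1 against DEN had adjusted p = 0.277 and 0.414 (limma).

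**Figure D4:**
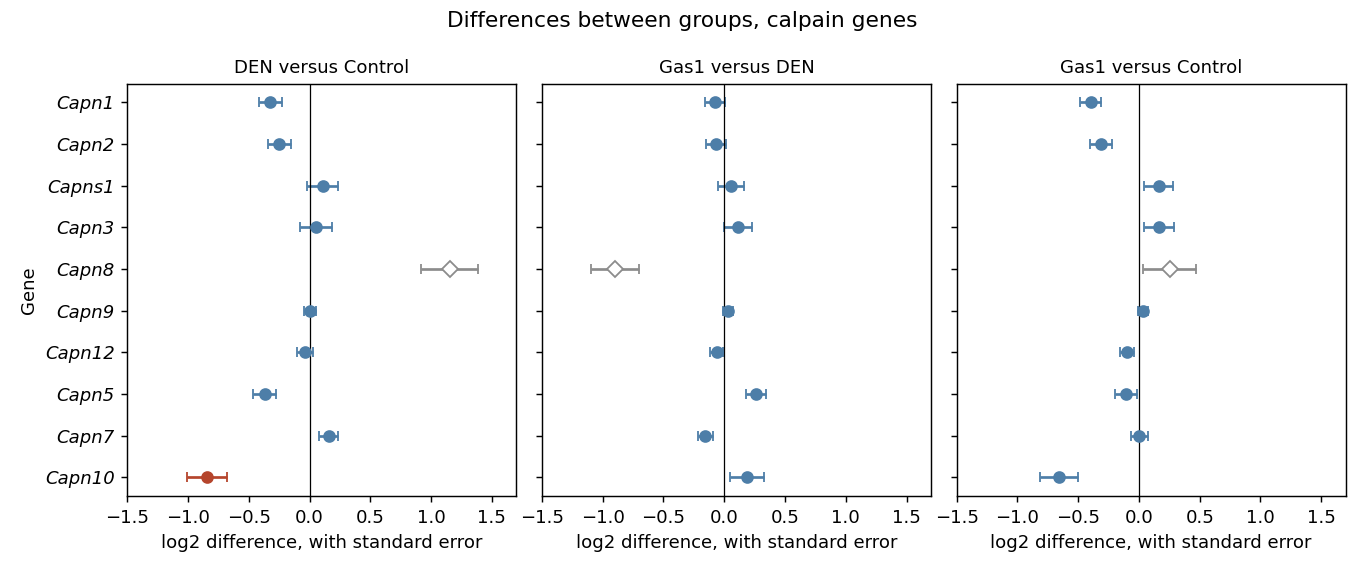
Log2 difference with its standard error for the 10 calpain genes in DEN versus Control, Gas1 versus DEN and Gas1 versus Control. The red point marks Capn10, the member past the adjusted p threshold, at -0.84 in DEN versus Control (0.076 after median scaling), and the open diamonds mark Capn8, which was not tested.

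Of the 9 tested members, 1 fell and none rose in DEN against Control, where 2.38% of all 22032 gene symbols passed the threshold. None passed in Gas1 against DEN or in Gas1 against Control (limma), where 0.127% and 0.427% of all symbols did. Before adjustment, 4, 2 and 3 members were below 0.05 in the 3 comparisons, beside 20.3%, 10.9% and 13.2% of all symbols. By the methods' t-test, the counts were 3, 2 and 3 members before adjustment in the 3 comparisons, and 0 after it in each. The mice did not overlap for 3 of the 9 members in DEN against Control (19.1% of all symbols), for none in Gas1 against DEN (3.13%) and for 3 in Gas1 against Control (5.86%). The median differences over the 9 genes were -0.04, 0.03 and -0.10, beside 0.006, -0.009 and -0.003 over all symbols. On low values, 7 of the 10 members were well above background on every array of at least 1 group, Capn8 only through the DEN group, and Capn3, Capn9 and Capn12 were not.

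None of 6 further genes of the calpain system (Capn6, Capn11, Capn13, Solh, Capns2 and Cast) passed the test in any of the 3 comparisons (limma; 1, 0 and 1 before adjustment at 0.05, beside 20.3%, 10.9% and 13.2% of all symbols, and 2, 0 and 1 by the methods' t-test), and 4 of them were not above background on any array. The other 2, Cast and Capn11, are named after their values were seen. Calpastatin, the inhibitor of the conventional calpains, was above background on 14 arrays, and its mean was 6.71 ± 0.03 in Control, 6.87 ± 0.06 in DEN and 6.82 ± 0.14 in Gas1, a difference of 0.16 (0.08) in DEN that did not pass the test (adjusted p = 0.274, limma). Capn11, known from testis, read 7.95 ± 0.26, 8.05 ± 0.40 and 7.94 ± 0.37 in the same order.

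Transcripts of 24 calpain substrates, cytoskeletal and adhesion proteins and regulators of cell death for the most part, were measured, and none passed the test in the comparisons of DEN with Control, Gas1 with DEN and Gas1 with Control (limma; 6, 4 and 9 before adjustment at 0.05, beside 20.3%, 10.9% and 13.2% of all symbols, and 5, 2 and 8 by the methods' t-test). Their differences ran from -0.43 to 0.44 in DEN against Control with a median of -0.01. Transcript levels say nothing of the cleavage of the proteins.

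Because Capn8 is a gastric gene, 18 other genes of the stomach surface and glands were examined. Of these, 13 were not above background on any array. Of the 18, 1 rose and 1 fell in DEN against Control (limma), beside 2.38% of all symbols past the threshold. Before adjustment 5 were below 0.05, beside 20.3% of all symbols. By the methods' t-test 6 were below 0.05 before adjustment and 0 after it. Trefoil factor Tff2, secreted with gastric mucus, rose by 0.35 (0.08; adjusted p = 0.049, limma), but was above background on 2 of 5 DEN arrays and on no Control array, so that no fold can be given. Cathepsin E (Ctse), an aspartic protease of gastric epithelium, was well above background on every Control and Gas1 array and on no DEN array, with means of 8.25 in Control and 5.94 in DEN. With the approximate limit used for Capn8, it was at least 3.96-fold lower in DEN than in Control. By the same limit it was at least 2.53-fold higher in Gas1 than in DEN. The study had named Ctse among the genes that changed between these same groups. As for Capn8, its values and its call are thus a description and carry no test. The median of the 18 genes was -0.001 in DEN against Control, beside 0.006 over all symbols.

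Of 57 marker genes of liver and other cell types, 2 passed the test in DEN against Control (limma), beside 2.38% of all symbols. Before adjustment 15 were below 0.05, beside 20.3% of all symbols, and 13 by the methods' t-test. In DEN against Control none of the 8 biliary, 10 skeletal muscle, 9 exocrine pancreas, 8 leukocyte or 6 endothelial and stellate genes passed the test (limma; 3, 0, 1, 3 and 0 before adjustment at 0.05, beside 20.3% of all symbols, and 1, 2, 1, 1 and 1 by the methods' t-test). Of 6 blood and platelet genes, 3 had positive and 3 negative differences, and 1 passed, the platelet chemokine Pf4. It rose by 0.85 (0.20; adjusted p = 0.0489, limma), but was above background on 2 of 4 Control arrays. Before adjustment 3 of the 6 were below 0.05, and 3 by the methods' t-test. Of 10 hepatocyte genes, 4 had positive and 6 negative differences, and 1 passed, transthyretin (Ttr), which fell by 1.01 (0.13; adjusted p = 0.00594, limma). Before adjustment 5 of the 10 were below 0.05, and 4 by the methods' t-test. No gene of these lists passed in the comparisons of Gas1 (limma; 10 and 9 of 57 before adjustment at 0.05, beside 10.9% and 13.2% of all symbols, and 6 and 7 by the methods' t-test). The part of cell composition in the Capn8 and Capn10 differences was not tested.

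Capn8 lies next to Capn2 on chromosome 1, and 11 other genes, Capn2 among them, had a probe within 1 Mb of the Capn8 probe. None passed the test in the comparisons of DEN with Control, Gas1 with DEN and Gas1 with Control (limma; 4, 2 and 2 before adjustment at 0.05, beside 20.3%, 10.9% and 13.2% of all symbols, and 3, 2 and 2 by the methods' t-test), with medians of -0.03, -0.06 and -0.09. By the distance between probes, the nearest on each side were Capn2, at 164.9 kb, described above, and 4922505E12Rik, at 115.8 kb. The latter had -0.21 (0.08; adjusted p = 0.162, limma) in DEN against Control. Susd4, a complement regulator with its probe 263.4 kb away, is named here after its values were seen. It read 9.86 ± 0.75 in Control, 10.85 ± 0.45 in DEN and 9.71 ± 0.55 in Gas1, and neither 0.98 (0.39) in DEN against Control nor -1.14 (0.33) in Gas1 against DEN passed the test (adjusted p = 0.183 and 0.205, limma).

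**Figure D5:**
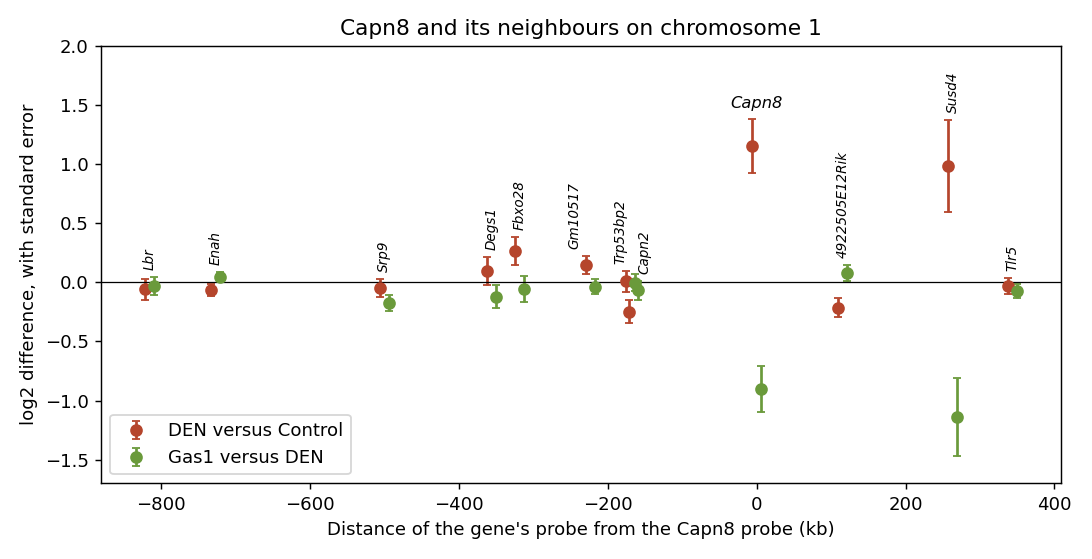
Log2 difference with its standard error of Capn8 and of 11 genes within 1 Mb, against the distance of each probe from the Capn8 probe in kb, for DEN versus Control (red) and Gas1 versus DEN (green). Susd4, at 0.98 and -1.14, is the neighbor with the widest differences, neither past the threshold, and the other neighbors lie between -0.25 and 0.27.

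The genes whose signal followed that of Capn8 most closely over the 13 mice, among 9800 symbols above background on every array of at least 1 group, were Miox (Pearson's r = 0.93), Wfdc15b (0.93), LOC100042049 (0.92), Ybx2 (0.91) and Gldn (0.90). Those running most against it were Ehhadh (-0.92), Acaa1b (-0.91) and Cyp2c39 (-0.91). Miox, the enzyme that opens inositol, had means of 6.28 in Control, 8.16 in DEN and 6.78 in Gas1. Ehhadh, an enzyme of peroxisomal fatty acid oxidation, had means of 11.35, 10.03 and 11.04. These values are a description, since the mice share their groups and the Capn8 signal was near background in most of them. Within the 6 Gas1 mice alone, of which 1 was above background for Capn8, r ran from 0.16 (Gldn) to 0.91 (LOC100042049) for the 5 genes that followed it, and for Miox and Wfdc15b, at 0.93 over all mice, it was 0.49. The groups of 3 and 4 mice are too small for a value, and the sign for Miox and Wfdc15b was negative among the Control mice. Among the calpains, r with Capn8 over the 13 mice ran from -0.62 (Capn5) and -0.60 (Capn10) to 0.45 (Capn7).

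The starts of Capn8 and Capn10 are shown because their base composition differs. With quantile normalization these members had the widest differences between DEN and Control, of opposite sign. After median scaling this did not hold for Capn10, at 0.076 (0.35), where Capns1 (1.11) and Capn2 (0.72) had wider differences. Both sequences are the 250 bases before the gene start on the forward strand, from RefSeq with build GRCm38.p6, which is not the build of the probe positions, and capitals mark CG pairs and the AP-1 motif TGANTCA, searched on both strands. Promoters were held for all members except Capn5. The Capn8 stretch, chr1:182564757-182565006, has 0 CG pairs, as do 7.87% of 32851 starts in the table, where the median is 6. The Capn10 stretch, chr1:92934158-92934407, has 16, and 76.5% of starts have as many or fewer. The other members held range from 3 to 19, with more than Capn10 in Capn2 (19) and Capn7 (18), and few in Capn9 (5) and Capn3 (3 and 4). A link of base composition to the differences was not tested. The motif TGANTCA, found in 6.75% of starts, occurs 1 time in that of Capn8, beginning 106 bases before the gene start, and 0 times in that of Capn10. Of the other members held, Capn2 has it 1 time, beginning 183 bases before the start. Neither stretch holds TATAAA (12.4% of starts) or GGGCGG (32.7%). The motif CCAAT (33.8%) occurs 1 time in that of Capn10 and 0 times in that of Capn8. A match of letters does not show that a factor binds there.
Capn8: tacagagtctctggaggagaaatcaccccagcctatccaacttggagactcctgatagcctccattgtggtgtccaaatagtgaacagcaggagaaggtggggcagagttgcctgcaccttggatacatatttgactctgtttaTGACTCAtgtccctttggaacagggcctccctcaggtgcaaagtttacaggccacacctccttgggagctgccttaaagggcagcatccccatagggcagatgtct
Capn10: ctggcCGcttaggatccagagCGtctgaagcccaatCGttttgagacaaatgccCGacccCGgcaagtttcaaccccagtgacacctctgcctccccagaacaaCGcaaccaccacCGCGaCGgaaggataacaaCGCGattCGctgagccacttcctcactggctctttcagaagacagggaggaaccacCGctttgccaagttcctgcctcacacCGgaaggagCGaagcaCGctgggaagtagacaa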

How the data were processed

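The data are 15 liver RNA samples on 1-color (Cy3) Agilent arrays. The deposited scanner files hold spot intensity and local background intensity from Agilent Feature Extraction 10.7.3.1, not normalized between arrays. The authors also deposited a table of log2 values, which their methods describe as normexp-corrected and quantile-normalized, with no stated offset. From the intensities, the same steps were run with limma 3.58.1 (R 4.3.3) and an offset of 50 on the mean and median background signals, with outlier-flagged spots (218 to 3692 per array) left out; 99.2% of the values lay within 0.05 of the authors' log2 values when those spots were kept. No spot was saturated. The number of arrays limits the precision.

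Control spots were dropped, spots of a probe averaged, and probes of a symbol centred and averaged. Arrays sharing an RNA code were averaged. Their log2 values differed with an SD of 0.15 and 0.14, against 0.21 to 0.43 for other pairs within a group. Nothing further says that samples are separate cultures or litters, so p-values measure the spread between these mice. A limma fit over 22032 symbols with Benjamini-Hochberg adjustment (threshold 0.05) was run on 3 Control, 4 DEN and 6 Gas1 mice, with no trend or covariate, and checked on simulated data. Probe positions are on mm9, per the file headers. For the arrays the study's methods name the multtest package and no statistic. They name a two-tailed t-test for other data. That t-test, with equal variances, was run here as an alternative, called the methods' t-test, and does not repeat the study's own array test.

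Members and lists were chosen with earlier results of these data known. Named genes were all members, every list gene past the threshold (at most 5 a list), the 5 highest and 3 lowest correlations with Capn8, its nearest neighbors, and those said to be chosen after their values were seen.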

Additional observations from a re-analysis of the deposited data

Results flagged for a closer look

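Within the groups of 4 and 6 mice, 4 of 18 sets of values of the 9 tested members had an end mouse set apart, by a gap to its nearest neighbor that exceeded Dixon's 95% critical value as a share of the group's range. Chance alone gives about 1 in 20, and all 4 were in the Gas1 group. The fourth Gas1 mouse was low for Capn7 (6.93 against 7.07 for the next; share 0.685). The sixth was high for Capn3 (6.62 against 6.15; 0.701), in the array with high skeletal muscle genes. The third was low for Capn5 (6.46 against 6.76; 0.647), and the second was high for Capn12 (6.20 against 6.06; 0.634), a gene above background on few arrays. For Capn8, whose values carry no test, the fourth Gas1 mouse, the 1 of 6 above background, read 6.85 against 6.20 for the next (share 0.797), as a description.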

How the results depend on the processing

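Of 33 alternatives, 13 left out a mouse and 20 changed a step. The count of 1 member past the threshold in DEN against Control became 0 with the processed signal, with the methods' t-test, with Welch's statistic, and on slide 1 or slide 2 alone, and 2, Capn5 joining Capn10, with 15 arrays as separate mice, with only the Control pair averaged, with only the groups compared in the fit, and with the replicate block on 15 arrays. It ran from 0 to 2 when a mouse was left out. With median scaling it stayed at 1, but the member was Capns1 and the Capn10 difference turned to 0.076. The move under this scaling was wide for the bright Capns1 (from 0.11 to 1.11) and slight for the dim Capn9 (from 0.002 to 0.004). The cause was not tested. In Gas1 against DEN the count was 0 throughout. In Gas1 against Control the 0 became 3 with 15 arrays as separate mice (Capn1, Capn2 and Capn10), 1 with slide as a block and 1 with the replicate block (Capn10), and 0 to 1 when a mouse was left out (Capn1, without the mouse of Control arrays 3 and 4 or the sixth Gas1 mouse). The Capn8 difference between DEN and Control was 3.23 with the processed signal, 1.85 with an offset of 16 and 1.54 without background correction, against 1.15, and that between Gas1 and DEN was -2.92 and -1.37 with the first and second of these, against -0.90. It kept its sign under every alternative in each comparison. Replicate numbers are shared by the groups, but same-numbered arrays deviated together with r from -0.31 to 0.26 over 13 pairs, so they were not taken as paired.

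Over all gene symbols, the 525 calls in DEN against Control ranged from 0 (the methods' t-test) to 2832 (median scaling), the 28 in Gas1 against DEN from 1 to 263, and the 94 in Gas1 against Control from 0 to 342. The split of 268 higher and 257 lower in DEN became 2818 and 14 with median scaling, and that of 6 and 22 in Gas1 against DEN became 12 and 18 with cyclic loess. The median of all symbols in DEN against Control shifted by 0.12 with median scaling and by -0.40 with the processed signal, relative to which Capn8 was higher by 1.09 and 3.62. Dim probes set a limit here: where a gene is near background, the log2 difference is compressed by the offset.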
